A study of Mus musculus with 34 samples.

Results

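The nuclear cap-binding complex, its partner ARS2 and the proteins that act with them were followed as 10 genes across 34 RNA-seq libraries of mouse T cells. The 10 genes were Srrt, Ncbp1, Ncbp2, Ncbp3, Phax, Zc3h18, Zfc3h1, Alyref, Casp8ap2 and Slbp. They were chosen by name from the 48526 genes of the deposited count table, whose Ensembl identifiers were matched to symbols with GENCODE M21 (GRCm38). All 10 passed the filter on low counts and were among the 18292 genes tested.

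A capped transcript is bound in the nucleus by the cap-binding complex, a pair of proteins encoded by Ncbp1 (CBP80) and Ncbp2 (CBP20), and ARS2, encoded by Srrt, docks on that pair. Different partners then send the RNA to different fates: PHAX exports small nuclear RNA, ALYREF loads messenger RNA onto the export machinery, ZC3H18 and ZFC3H1 link the complex to decay by the nuclear exosome, and NCBP3 is a further cap-binding partner. SLBP and FLASH, the product of Casp8ap2, act in the 3′ end processing of replication-dependent histone messenger RNA, which ARS2 also takes part in and which proliferating lymphocytes need in S phase.

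All mice were C57BL/6 and 6-12 weeks old, and pan T cells were purified from spleen by negative selection. WT cells were sampled unstimulated (day 0) and after αCD3/αCD28/rIL-2 for 24 h (day 1) or 72 h (day 3), with 2 libraries each. The same stimulus and times were applied to the mutants: 3 libraries per day of Ars2 KO, of DKI, of CD28 AYAA and of CD28 Y170F, and 2 per day labelled CD28 KO. In the cytoplasmic tail of CD28, AYAA alters the proline motif and Y170F the tyrosine motif. What DKI carries is not spelled out in the labels, nor are the cells in which Ars2 was deleted or the means. The stimulus held αCD28 in every stimulated group, libraries labelled CD28 KO included. Replicates are biological per the series' design text, and p-values measure the spread between these libraries.

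Total expected counts ran from 8.3 to 47.8 M (mega) per library. The 8 libraries under 12 M were all 6 of DKI and WT number 4 on both days, so DKI shared its depth class with WT number 4 and the other mutants shared theirs with WT number 1. The labels name no batch. T cell markers were present in every group, with summed levels of 1691 to 2938 CPM (read counts per M counts of the library). Unstimulated libraries differed from stimulated ones in more than stimulation. Mitochondrial ribosomal RNA took 17.18 to 17.52% of their counts and at most 0.18% in the 32 stimulated libraries, 7 B cell markers summed to 626 to 646 CPM against 6.53 to 20.4 in WT at day 1, and Xist, which female cells transcribe, was at 1145.5 and 1192.5 CPM against 0.83 or less in the stimulated WT and DKI libraries. In each of the other mutant groups Xist differed between libraries, from 0.264 to 2902 CPM over them. The part of these in the comparisons with day 0 was not tested. In bulk RNA, fewer cells of a type and less RNA per cell cannot be told apart.

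Of the 8 members with a promoter entry in RefSeq (GRCm38.p6), 4 are shown because the results turn on them. Alyref, Casp8ap2 and Slbp rose and fell with each other across the groups, and Srrt is the gene targeted in Ars2 KO. Each line gives the 250 bases before the annotated start, 5′ to 3′ on the strand of the gene. The windows are chr5:137307675-137307924, minus strand for Srrt, chr11:120598366-120598615, minus strand for Alyref, chr4:32615220-32615469, plus strand for Casp8ap2 and chr5:33652575-33652824, minus strand for Slbp. Capitals mark matches on either strand to the motifs searched: an E2F motif (TTTCGCGC or TTTGGCGC), an ETS motif (CCGGAAGT), the box read as CCAAT, the TATA box read as TATAAA, the E-box read as CACGTG and the NRF1 motif.
Srrt: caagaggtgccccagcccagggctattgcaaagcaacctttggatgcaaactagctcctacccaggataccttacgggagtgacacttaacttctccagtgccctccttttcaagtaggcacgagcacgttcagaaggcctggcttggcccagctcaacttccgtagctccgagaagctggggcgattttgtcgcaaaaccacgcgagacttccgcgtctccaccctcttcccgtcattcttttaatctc
Alyref: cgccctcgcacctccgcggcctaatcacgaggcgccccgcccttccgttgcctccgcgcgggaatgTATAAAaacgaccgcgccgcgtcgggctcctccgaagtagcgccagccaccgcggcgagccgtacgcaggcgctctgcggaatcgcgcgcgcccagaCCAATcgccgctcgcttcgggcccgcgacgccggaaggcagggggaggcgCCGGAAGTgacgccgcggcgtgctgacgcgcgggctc
Casp8ap2: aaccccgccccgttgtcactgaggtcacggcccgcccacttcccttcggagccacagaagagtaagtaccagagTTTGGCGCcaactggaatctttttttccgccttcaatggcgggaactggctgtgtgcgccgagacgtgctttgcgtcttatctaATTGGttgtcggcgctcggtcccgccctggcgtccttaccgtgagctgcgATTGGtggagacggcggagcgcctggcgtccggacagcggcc
Slbp: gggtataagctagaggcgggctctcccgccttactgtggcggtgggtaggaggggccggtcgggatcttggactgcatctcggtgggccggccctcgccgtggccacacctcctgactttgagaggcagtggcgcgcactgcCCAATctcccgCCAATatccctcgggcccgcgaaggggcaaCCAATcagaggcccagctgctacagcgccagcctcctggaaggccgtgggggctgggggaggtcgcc

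CCAAT was found 3 times upstream of Slbp, 2 times upstream of Casp8ap2 and 1 time upstream of Alyref, against at least 1 match in 34.5% of 27025 promoters of the same length. Casp8ap2 carried the E2F motif TTTGGCGC from 176 to 169 bases before the start, and 0.7% of promoters held an E2F motif. Alyref held the ETS motif from 37 to 30 bases before the start, as did Ncbp1 from 13 to 6, against 2.9% of promoters. TATAAA was found in Alyref alone of the 8, 184 to 179 bases before the start, and in 3504 of the 27025 promoters. None of these letters was found upstream of Srrt, Ncbp3, Zc3h18 or Zfc3h1, and no E-box or NRF1 match was found in any of the 8. A match describes the letters only.

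Srrt (ENSMUSG00000037364.11, GRCm38 chromosome 5, 137295704 to 137307674, minus strand), the gene targeted in Ars2 KO, checks the labels. Ars2 KO libraries held 33.8, 64.8 and 33.5 CPM at day 1 and 108, 146 and 106 at day 3. WT held 159 and 150.0 CPM unstimulated, 244 and 131 at day 1 and 245 and 145 at day 3, WT number 1 standing first on the stimulated days. All Ars2 KO libraries of day 1 lay below every other library of the series, and those of day 3 overlapped the WT range, where number 2 (146 CPM) was level with WT number 4 (145 CPM). Relative to WT on the log2 scale, day 1 was at -2.09 (SE 0.23, edgeR adjusted p = 1.9e-05) and day 3 at -0.71 (SE 0.23, adjusted p = 0.042). The day 3 call was lost against WT number 4 alone (-0.3, adjusted p = 0.54), without Ars2 KO number 1 (-0.64, adjusted p = 0.13) and without number 3 (-0.63, adjusted p = 0.088), and against WT number 1 alone it was -1.04 (adjusted p = 0.025). With the spread estimated from the compared groups only, neither day passed (adjusted p = 0.47 and 0.27).

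Srrt RNA rose within Ars2 KO, from a mean of 44.0 CPM at day 1 to 120 at day 3, with no overlap between the 3 libraries of each day (a log2 difference of 1.44, SE 0.21, adjusted p = 2.2e-05). The difference from WT was smaller at day 3 than at day 1 by 1.38 on the log2 scale (SE 0.33, adjusted p = 0.021 for the interaction). That interaction lost its call without WT number 1 of day 1 (0.82, adjusted p = 0.22), WT number 4 of day 3 (1.05, adjusted p = 0.18), Ars2 KO number 1 of day 1 (1.22, adjusted p = 0.067) or Ars2 KO number 2 of day 3 (1.21, adjusted p = 0.065). The 7 myeloid markers summed to 10.4 to 26.7 CPM in Ars2 KO at day 1 and 11.4 to 21.1 at day 3, against 6.58 to 7.84 (Cd14 at 0) and 6.35 to 7.96 (Adgre1 at 0) in WT. Of the 7, 0 passed at day 1 and 1 was higher at day 3, and their part in the Srrt level was not tested.

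In the remaining mutant genotypes the lowest Srrt value was 148 CPM. Libraries labelled CD28 KO held 154 and 148 CPM at day 1 and 222 and 239 at day 3. DKI held 158, 154 and 162 CPM at day 1 and 234, 239.7 and 217 at day 3. CD28 AYAA held 185, 185 and 187 CPM at day 1 and 255, 249 and 247 at day 3, and CD28 Y170F held 219, 220.3 and 223 at day 1 and 255, 185 and 190.1 at day 3. The order of group means ran from Ars2 KO at day 1 and day 3 through libraries labelled CD28 KO at day 1 (151 CPM), unstimulated WT (155) and DKI at day 1 (158), whose ranges overlapped, up to CD28 AYAA at day 3 (250.2). Neighbours from CD28 AYAA at day 1 to libraries labelled CD28 KO at day 3 overlapped as well. WT number 4 lay below every library of these 4 genotypes on both days, so a contrast of Srrt with WT depended on the WT library. Libraries labelled CD28 KO at day 1 were at -0.69 against WT number 1 alone (adjusted p = 0.042), at 0.26 against WT number 4 alone (adjusted p = 0.54) and at -0.32 against both (adjusted p = 0.33).

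**Figure D1:**
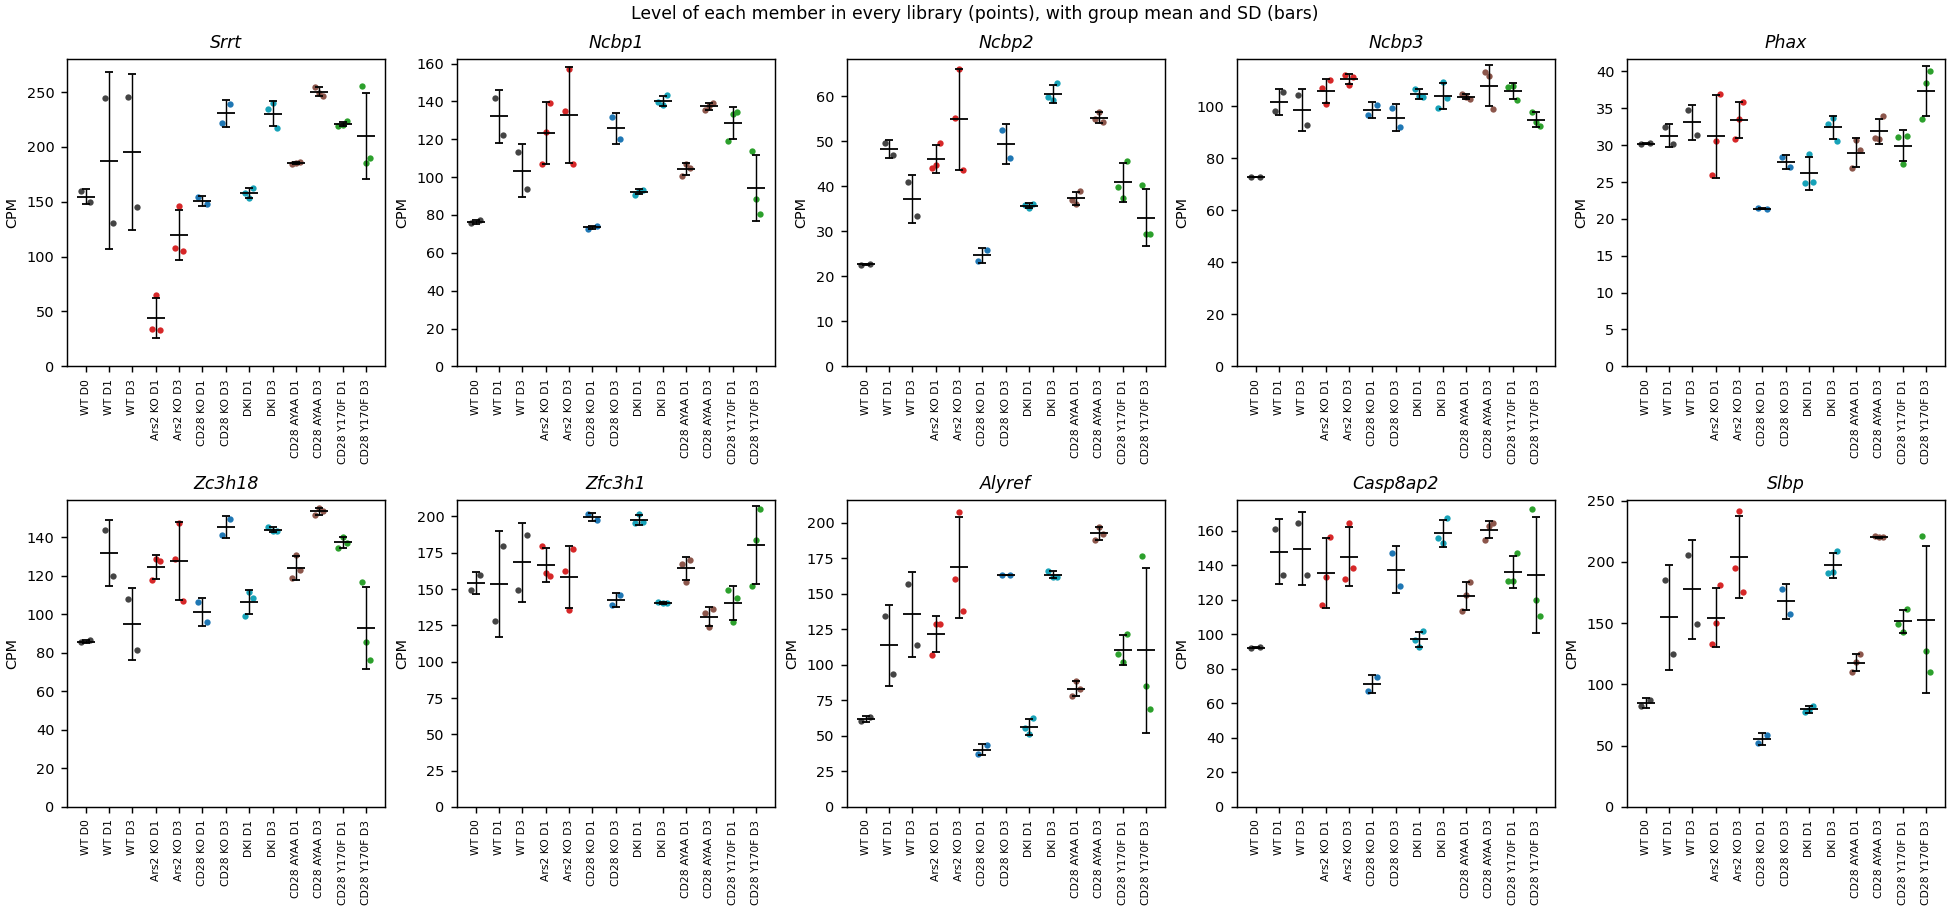
CPM of the 10 genes (one panel each, vertical axis from 0) in the 34 libraries, by group along the horizontal axis, with bars for the group mean and SD. Srrt is lowest in Ars2 KO at day 1 (33.5 to 64.8 CPM), while Alyref, Casp8ap2 and Slbp are lowest in libraries labelled CD28 KO at day 1.

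Both subunits of the cap-binding complex were higher in stimulated than in unstimulated WT cells. Of the 10 genes, 7 rose and 0 fell at day 1, where 24.2% of all genes tested rose and 27.2% fell. The median log2 fold change was 0.65 over the 10 and -0.02 over all genes. At day 3, 6 rose and 0 fell, against 23.5% and 27.0%, with medians of 0.44 and -0.07. Ncbp2 (CBP20, the subunit that contacts the cap) stood at 22.6 and 22.8 CPM before stimulation, 49.6 and 46.9 at day 1 and 41.0 and 33.4 at day 3, with no overlap with day 0 on either day. On the log2 scale day 1 stood at 1.09 (SE 0.15, adjusted p = 1.5e-06) and day 3 at 0.72 (SE 0.15, adjusted p = 2.8e-04) from day 0. Ncbp1 (CBP80) went from 75.5 and 77.2 to 142 and 122 CPM at day 1 and 113 and 93.5 at day 3. The changes from day 0 were 0.79 at day 1 (SE 0.14, adjusted p = 6.3e-05) and 0.44 at day 3 (SE 0.14, adjusted p = 0.013). On the later day the Ncbp1 call was lost without WT number 1 of that day (0.29, adjusted p = 0.2) or without number 1 of day 0 (0.43, adjusted p = 0.067). Srrt, the ARS2 gene, did not pass at day 1 (0.28, adjusted p = 0.37) or day 3 (0.34, adjusted p = 0.28). With WT number 1 as the only day 1 library Srrt reached 0.67 (adjusted p = 0.044).

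Among the partners, Ncbp3 was at 72.7 CPM in both unstimulated libraries and at 98.0 and 105 a day later (0.48, SE 0.08, adjusted p = 9.6e-06). Zc3h18, which links the complex to the nuclear exosome, rose at day 1 from 85.4 and 86.5 to 144 and 120 CPM (0.62, SE 0.15, adjusted p = 9.9e-04). By day 3 it was back at 108 and 81.7 CPM, a range that overlapped day 0 (0.15, adjusted p = 0.43). The fall of Zc3h18 between the days was the sole member called between WT at day 3 and day 1 (-0.47, SE 0.15, adjusted p = 0.016), where 14.0% of genes fell. That call was lost without WT number 1 of day 1 or WT number 4 of day 3, when 0 members passed by edgeR and 2 and 0 had an unadjusted p under 0.05. Without WT number 1 of day 3, 2 passed. Zfc3h1, the exosome link of the polyadenylated pathway, held 149 and 160 CPM before and 128 and 180 after 1 day, with WT number 1 below and WT number 4 above day 0 (-0.01, adjusted p = 0.97). Phax did not pass on either day and stayed between 30.2 and 34.8 CPM in all 6 WT libraries.

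The export adaptor and the histone factors rose on both days. Alyref went from 60.3 and 63.4 to 134 and 93.3 CPM at day 1 and 157 and 114 at day 3, changes of 0.88 at day 1 (SE 0.26, adjusted p = 0.0064) and of 1.13 at day 3 (SE 0.26, adjusted p = 7.8e-04). Slbp went from 82.1 and 87.7 to 185 and 125 CPM and then to 206 and 149, with 0.87 (SE 0.22, adjusted p = 0.0018) and 1.07 (SE 0.22, adjusted p = 2.5e-04). Casp8ap2 went from 92.0 and 92.6 to 161 and 135 CPM and then to 165 and 135 (0.68 and 0.7, SE 0.16 each, adjusted p = 7.6e-04 and 5.8e-04). For each of these genes WT number 1 was the higher stimulated library on both days. Without WT number 1 of day 1 the count fell to 5, as Alyref (0.55, adjusted p = 0.16) and Slbp (0.51, adjusted p = 0.11) no longer passed.

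**Figure D2:**
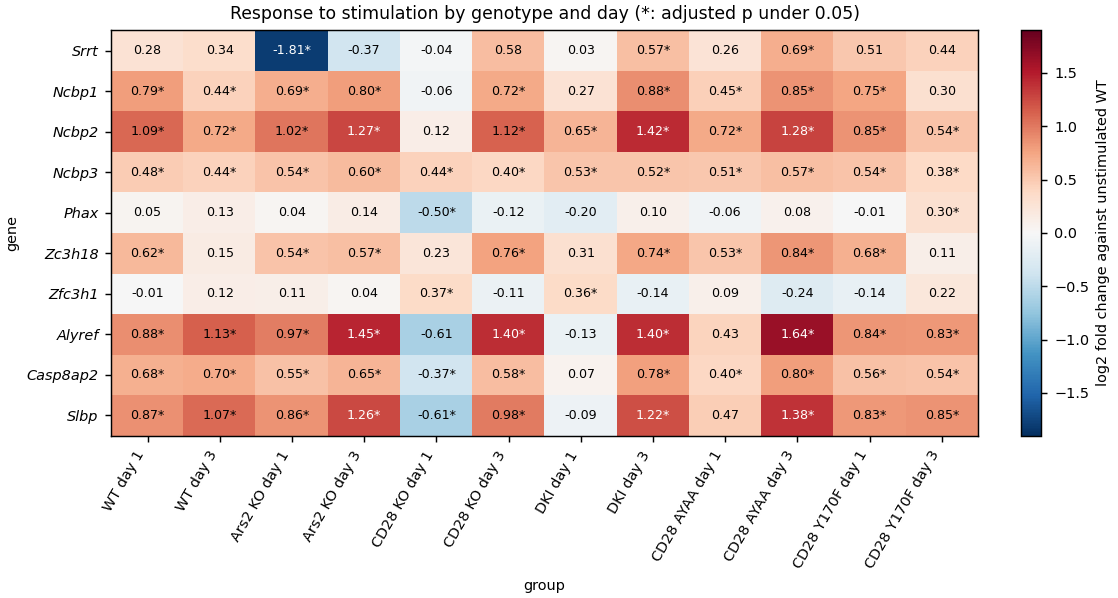
Heat map of log2 fold changes against unstimulated WT for the 10 genes (rows) in each genotype and day (columns), red for higher and blue for lower, with a star where the edgeR adjusted p is under 0.05. The columns of libraries labelled CD28 KO and of DKI at day 1 hold values near or below 0 for Ncbp1, Alyref and Slbp, apart from 0.27 for Ncbp1 in DKI, and their day 3 columns hold 0.72 to 1.4.

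The mutants were set against the same 2 unstimulated WT libraries, so these contrasts share their control. In Ars2 KO cells 7 members rose at day 1, where 25.7% of genes rose, and Srrt fell by 1.81 on the log2 scale (adjusted p = 3.9e-07), where 28.0% fell. At day 3, 7 rose, where 27.3% did, and 0 fell. The largest were Ncbp2 at 1.02 (SE 0.14) and Alyref at 0.97 (SE 0.24) at day 1, and Alyref at 1.45 (SE 0.25) and Ncbp2 at 1.27 (SE 0.14) at day 3. In CD28 Y170F 7 rose (25.8% of genes rose) and 6 (25.3%) on the 2 days, and in CD28 AYAA 5 (23.8%) and 8 (27.8%). In DKI 3 rose at day 1 (21.7%), namely Ncbp2 (0.65), Ncbp3 (0.53) and Zfc3h1 (0.36), and 8 at day 3 (26.3%). The call of Zfc3h1 in DKI was lost, and its direction turned (-0.05, adjusted p = 0.86), with the depth class as a term. In libraries labelled CD28 KO, 2 rose (21.1%) and 3 fell (31.1%) at day 1. Ncbp3 (0.44, SE 0.08) and Zfc3h1 (0.37, SE 0.14) rose, while Phax (-0.5, SE 0.12, adjusted p = 0.0018), Slbp (-0.61, SE 0.22, adjusted p = 0.022) and Casp8ap2 (-0.37, SE 0.16, adjusted p = 0.048) fell below their unstimulated level. Leaving out any 1 of the 4 libraries brought the 5 calls to 2 or 3. At day 3, 7 rose (24.1%) and 0 fell. Ncbp3 is the only member that passed as higher in all 12 contrasts with day 0, at 0.38 to 0.6.

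The libraries labelled CD28 KO were set against WT of the same day to ask how the members respond in cells with that label. At day 1, 7 of the 10 genes were lower and 1 was higher, where 24.7% of all genes were lower and 18.6% higher. The median was -0.7 over the 10 and 0.02 over all genes. Slbp, the histone stem-loop binding protein, held 52.0 and 58.9 CPM where WT held 185 and 125, a difference on the log2 scale of -1.49 (SE 0.22, adjusted p = 1.0e-05). Alyref held 37.5 and 43.3 CPM against 134 and 93.3 (-1.5, SE 0.27, adjusted p = 7.4e-05). Casp8ap2 held 67.4 and 75.1 CPM against 161 and 135 (-1.05, SE 0.16, adjusted p = 9.4e-06). The groups did not overlap in any of these, and in all of them the libraries labelled CD28 KO were the lowest 2 of all 34. The share of all genes that separated in this way was not counted.

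Both cap-binding subunits were lower too. Ncbp2 held 23.5 and 25.9 CPM against 49.6 and 46.9 (-0.97, SE 0.15, adjusted p = 1.5e-05). Ncbp1 held 72.8 and 74.0 CPM against 142 and 122 (-0.85, SE 0.15, adjusted p = 4.5e-05). Against unstimulated WT they were at 0.12 (adjusted p = 0.51) and -0.06 (adjusted p = 0.76). Phax, the snRNA export adaptor, held 21.5 and 21.4 CPM against 32.4 and 30.2 (-0.55, SE 0.13, adjusted p = 1.0e-03), its lowest level in the series. Zc3h18 was at -0.39 (adjusted p = 0.035). Zfc3h1 went the other way, with 202 and 198 CPM against 128 and 180 (0.38, SE 0.14, adjusted p = 0.028). The calls of Zc3h18 and Zfc3h1 were each lost without WT number 1 (-0.19 and 0.21) and without either library labelled CD28 KO. Ncbp3 held 96.4 and 101 CPM against 98.0 and 105 and did not pass. Against WT number 1 alone, the library of the same depth class, 8 were lower and 1 higher, where 39.0% of all genes were called, and against WT number 4 alone 6 were lower, where 25.5% were called.

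S phase and cell type markers differed along with these genes. The mean log2(CPM + 1) of 15 S phase genes, none of them a member, was 4.46 and 4.93 in libraries labelled CD28 KO at day 1, 7.37 and 6.72 in WT and 5.33 and 5.43 in unstimulated WT. All 15 were lower than in WT at day 1, with a median log2 fold change of -2.39. B cell markers summed to 63.8 to 94.1 CPM against 6.53 to 20.4, with 3 of 7 higher and none at 0. Their part in the members' values was not tested. At day 3 the S phase level was 7.09 and 6.99 against 7.36 and 6.89 in WT, and 1 member was higher and 0 lower, where 8.57% of genes were higher. It was Zc3h18, with 141 and 149 CPM against 108 and 81.7 (0.61, SE 0.15, adjusted p = 0.0042). Of the 3 NK cell markers 2 were higher on that day, with sums of 20.9 to 28.5 CPM against 3.58 to 6.23 and none at 0, and 8 of 9 T cell markers were lower, with sums of 1861 to 1887 against 2337 to 2418. Their part in the level of Zc3h18 was not tested. Against WT number 1 alone 0 members passed by edgeR, where 10.4% of all genes did, 2 had an unadjusted p under 0.05, and the value of Zc3h18 was 0.43 (adjusted p = 0.11).

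DKI was compared with WT in the same way. At day 1, 5 members were lower and 1 was higher, against 15.8% and 10.3% of all genes, with medians of -0.37 and 0.0. Slbp held 77.2, 78.8 and 82.8 CPM against 185 and 125 (-0.96, SE 0.2, adjusted p = 0.0012). Alyref held 55.5, 51.5 and 62.4 CPM against 134 and 93.3 (-1.01, SE 0.24, adjusted p = 0.0032). Casp8ap2 held 96.5, 92.7 and 102 CPM against 161 and 135 (-0.61, SE 0.14, adjusted p = 0.0032). All 9 of these DKI values lay below both WT libraries, and the share of all genes that separated in this way was not counted. Ncbp1 was at -0.52 (SE 0.13, adjusted p = 0.0054) and Ncbp2 at -0.44 (SE 0.14, adjusted p = 0.021), and Zfc3h1 was higher at 0.36 (SE 0.13, adjusted p = 0.037). These calls rested on WT number 1. Against WT number 4 alone, the library of the same depth class, 0 members passed by edgeR, where 3.52% of all genes did, and 4 had an unadjusted p under 0.05. With the depth class as a term 1 member passed. Against WT number 4 alone Slbp was at -0.6 (adjusted p = 0.16), Alyref at -0.68 (adjusted p = 0.2) and Casp8ap2 at -0.43 (adjusted p = 0.19). The S phase level in DKI was 5.45 to 5.57 at day 1, against 6.72 in WT number 4 and 7.37 in WT number 1, and its part was not tested.

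**Figure D3:**
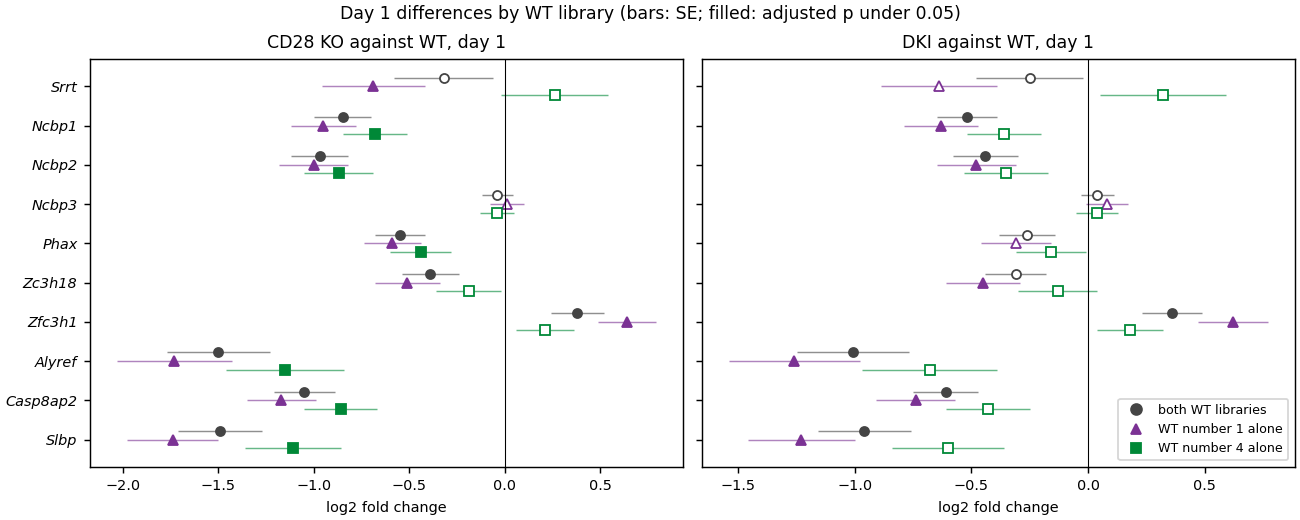
Log2 fold change at day 1 (horizontal axis) of the 10 genes (vertical axis) against both WT libraries, against WT number 1 alone and against WT number 4 alone, with SE bars and filled symbols where the adjusted p is under 0.05. In libraries labelled CD28 KO, 6 genes are filled with every choice, while in DKI none is filled against WT number 4.

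DKI and libraries labelled CD28 KO were also set against each other. At day 1, 1 member was higher in DKI, where 6.30% of genes were: Ncbp2, with 35.9, 35.1 and 36.1 CPM against 23.5 and 25.9 (0.53, SE 0.14, adjusted p = 0.019). Ncbp1, Ncbp3, Phax, Alyref, Casp8ap2 and Slbp also had higher values in every DKI library than in both libraries labelled CD28 KO. Their log2 differences of 0.09 to 0.52 did not pass. The share of all genes that separated in this way was not counted, so nothing is read from that separation. The groups also differed in depth class, with all DKI libraries under 12 M counts and those labelled CD28 KO above. Ncbp2 lost its call without either library labelled CD28 KO or without DKI number 1 or 3 (adjusted p = 0.25, 0.066, 0.051 and 0.052). At day 3, 0 members passed by edgeR, DESeq2 or limma-voom, where 0.454% of all genes did by edgeR, and 1 had an unadjusted p under 0.05.

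At day 3, 3 members were higher in DKI than in WT and 0 lower, against 10.3% and 13.1% of all genes. Ncbp2 held 59.9, 59.1 and 62.9 CPM against 41.0 and 33.4 (0.7, SE 0.14, adjusted p = 6.6e-04), the highest group mean of that gene. Zc3h18 held 145, 143 and 143 CPM against 108 and 81.7 (0.6, SE 0.14, adjusted p = 0.0023), and Ncbp1 held 140.0, 138 and 143 against 113 and 93.5 (0.44, SE 0.13, adjusted p = 0.018). No DKI library overlapped WT in these genes, and the share of all genes that separated in this way was not counted. Of 9 T cell markers 7 were lower and 1 higher (sums of 2137 to 2276 CPM against 2337 to 2418), and 1 of 3 NK cell markers was higher (6.69 to 7.86 against 3.58 to 6.23), which was not tested as a part of the differences. Against WT number 4 alone, the library of the same depth class, Ncbp1, Ncbp2 and Zc3h18 were higher and Zfc3h1 was lower (-0.43, adjusted p = 0.045), where 18.3% of all genes were called. Against WT number 1 alone only Ncbp2 passed (0.56, adjusted p = 0.036), where 11.2% were called.

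In CD28 AYAA, 0 members passed against WT at day 1 by edgeR, DESeq2 or limma-voom, where 3.61% of all genes did by edgeR, and 2 had an unadjusted p under 0.05. These were Ncbp2, with 37.0, 36.0 and 39.0 CPM against 49.6 and 46.9 (-0.37, adjusted p = 0.11), and Ncbp1, with 101, 107 and 105 CPM against 142 and 122 (-0.34, adjusted p = 0.12). With the depth class as a term Ncbp1, Ncbp2 and Slbp were lower. At day 3, 3 members were higher and 1 lower, against 10.4% and 11.3% of all genes. Zc3h18 held 152, 155 and 154 CPM against 108 and 81.7 (0.69, SE 0.14, adjusted p = 7.5e-04). Ncbp2 held 54.9, 56.6 and 54.2 CPM against 41.0 and 33.4 (0.56, SE 0.14, adjusted p = 0.0045), and Ncbp1 was at 0.41 (SE 0.13, adjusted p = 0.028). Zfc3h1 held 134, 124 and 136 CPM against 149 and 188 (-0.36, SE 0.13, adjusted p = 0.04). T cell markers summed to 1999 to 2249 CPM (5 of 9 lower and 1 higher) and NK cell markers to 5.33 to 21.7 (1 of 3 higher), and their part was not tested. Against WT number 1 alone, of the same depth class, 0 members passed by edgeR, where 6.91% of all genes did, and 2 had an unadjusted p under 0.05. Without CD28 AYAA number 2 or number 3 the 4 calls fell to 2.

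In CD28 Y170F, 0 members passed against WT on either day by edgeR, DESeq2 or limma-voom, where 0.0547% and 0.0273% of all genes did by edgeR, and 0 had an unadjusted p under 0.05. The member differences ran from -0.24 to 0.23 at day 1 and from -0.3 to 0.17 at day 3. These ranges depended on the WT library. Against WT number 1 alone day 1 ran from -0.32 (Slbp) to 0.1 (Zfc3h1) and day 3 from -0.51 (Alyref) to 0.27 (Zfc3h1). Against WT number 4 alone day 1 ran from -0.33 (Zfc3h1) to 0.78 (Srrt) and day 3 from -0.05 (Alyref) to 0.54 (Srrt). The 3 libraries of day 3 stood apart from each other. Number 1 held 177 CPM of Alyref against 85.4 and 68.8 in numbers 2 and 3, and 221 CPM of Slbp against 127 and 110. Its S phase level was 7.48 against 6.66 and 6.33. Without number 1, Alyref (-0.82, adjusted p = 0.0075) and Slbp (-0.59, adjusted p = 0.032) were lower than in WT.

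The CD28 tail mutants were compared with each other at matched times. At day 1, 0 members passed by edgeR, DESeq2 or limma-voom without pairing, where 4.35% of all genes did by edgeR, and 1 had an unadjusted p under 0.05. Libraries of the same number deviated together on that day. That pairing was taken from these same data and not from the labels, so the blocked p-values depend on it. With the replicate number as a block, 6 members were lower in CD28 AYAA and 1 was higher. In that fit 20.5% of all genes were lower and 17.8% higher. The blocked values were -0.41 for Alyref (adjusted p = 8.4e-04), -0.37 for Slbp (adjusted p = 3.0e-04), -0.31 for Ncbp1 (adjusted p = 5.4e-04), -0.26 for Srrt (adjusted p = 0.001), -0.16 for Casp8ap2 (adjusted p = 0.019), -0.15 for Zc3h18 (adjusted p = 0.022) and 0.22 for Zfc3h1 (adjusted p = 0.0042). All 3 CD28 AYAA libraries lay on the same side of all 3 CD28 Y170F libraries in each of these 7 genes. Slbp, for example, held 111, 118 and 125 CPM in CD28 AYAA and 149, 143 and 162 in CD28 Y170F. For Casp8ap2 the nearest libraries held 130.1 and 130.6 CPM. How many of all genes separated in this way was not counted, so nothing is read from it.

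At day 3, 6 members were higher in CD28 AYAA and 1 lower, against 17.6% and 19.2% of all genes. Ncbp2 held 54.9, 56.6 and 54.2 CPM against 40.4, 29.3 and 29.4 (0.74, SE 0.12, adjusted p = 3.9e-05), and Zc3h18 held 152, 155 and 154 against 117, 85.9 and 76.1 (0.72, SE 0.12, adjusted p = 4.3e-05). Alyref held 188, 197 and 192 CPM against 177, 85.4 and 68.8 (0.8, SE 0.21, adjusted p = 0.0041), so that number 1 of CD28 Y170F lay near CD28 AYAA. Ncbp1 was at 0.54 (SE 0.12, adjusted p = 7.1e-04), Slbp at 0.53 (SE 0.18, adjusted p = 0.022) and Zfc3h1 at -0.46 (SE 0.11, adjusted p = 0.0022). Slbp lost its call without CD28 Y170F number 2 (0.41, adjusted p = 0.13) or number 3 (0.34, adjusted p = 0.18). Ncbp3 was at 0.19 (SE 0.06, adjusted p = 0.018) and lost its call without any 1 of 4 libraries. Without number 1 of CD28 Y170F, 9 members passed. The share of all genes in that fit is not given, so nothing is read from that count. Between these groups 8 of 15 S phase genes were higher in CD28 AYAA, 2 of 3 NK cell markers were higher (5.33 to 21.7 CPM against 0.737 to 2.96) and 8 of 9 T cell markers were lower (1999 to 2249 against 2292 to 2938), and their part was not tested.

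Ars2 KO was compared with WT to ask what loss of Srrt does to its partners' RNA. At day 1 Srrt was the only member called, where 0.169% of all genes were lower. The other 9 genes had log2 fold changes from -0.13 to 0.12 against both WT libraries, a range that depended on them. Against WT number 1 alone they ran from -0.3 (Slbp) to 0.34 (Zfc3h1). Against WT number 4 alone they ran from -0.09 (Zfc3h1) to 0.4 (Alyref), with Slbp at 0.33. Slbp, for example, held 133, 150 and 181 CPM against 185 and 125, and Ncbp1 held 107, 124 and 139 against 142 and 122. At day 3, 2 members were higher and 1 lower (Srrt), against 6.60% and 6.27% of all genes. Ncbp2 held 55.1, 66.0 and 43.6 CPM against 41.0 and 33.4 (0.56, SE 0.14, adjusted p = 0.0085), and all 3 lay above both WT libraries. Zc3h18 was at 0.42 (SE 0.14, adjusted p = 0.039), with ranges that overlapped. T cell markers summed to 1738 to 1982 CPM against 2337 to 2418 (5 of 9 lower) and NK cell markers to 3.2 to 20.3 against 3.58 to 6.23 (1 of 3 higher), and their part was not tested. Against WT number 1 alone, of the same depth class, only Srrt passed, where 3.68% of all genes did, with Ncbp2 at 0.42 (adjusted p = 0.19) and Zc3h18 at 0.24 (adjusted p = 0.49). Without Ars2 KO number 1 or number 2 the count of 3 fell to 1.

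**Figure D4:**
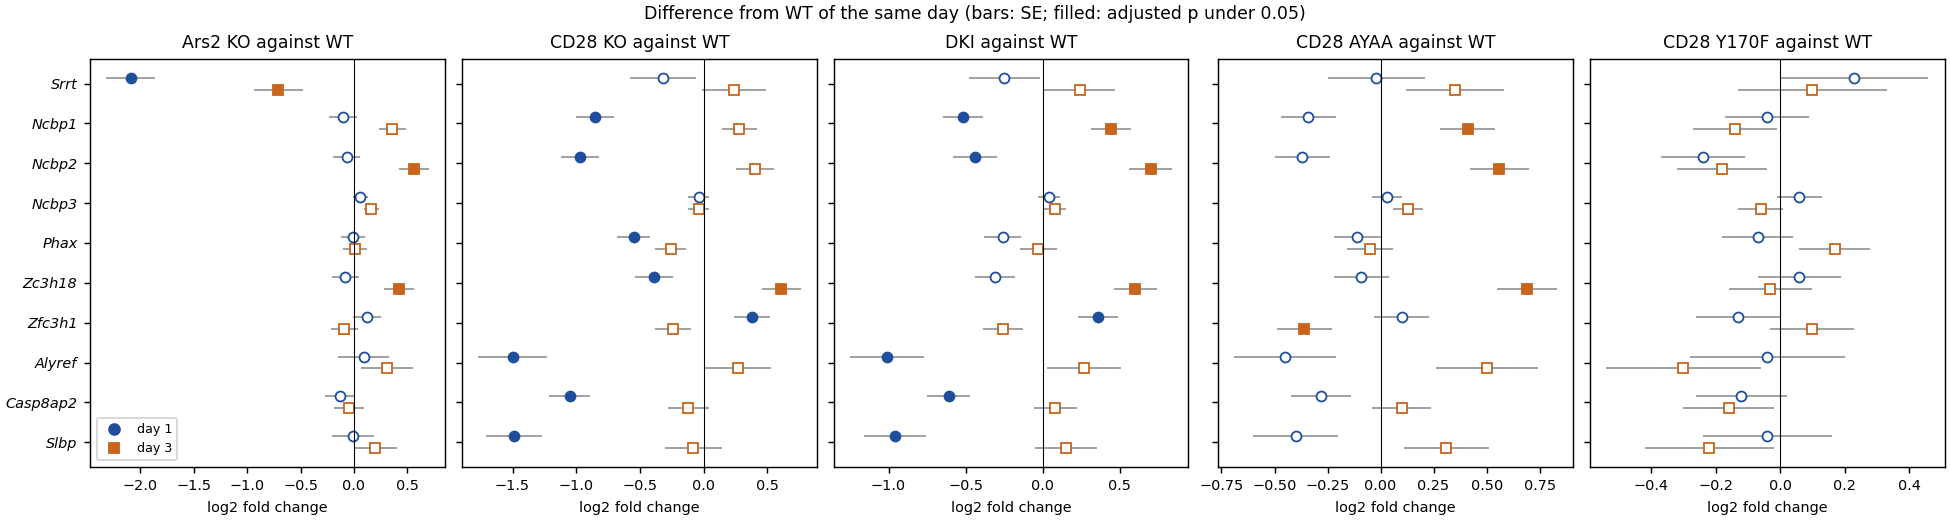
Log2 fold change from WT of the same day (horizontal axis, scaled per panel) for the 10 genes (vertical axis), with 1 panel per genotype, circles for day 1, squares for day 3, SE bars, and filled symbols where the edgeR adjusted p is under 0.05. Day 1 symbols lie left of 0 and day 3 symbols right of it for Ncbp1, Ncbp2 and Zc3h18 in libraries labelled CD28 KO, DKI and CD28 AYAA.

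The days were then compared within each genotype. Within libraries labelled CD28 KO, 7 rose and 1 fell, against 25.0% and 20.6% of all genes, led by Alyref at 2.01 (SE 0.27, adjusted p = 1.8e-06) and Slbp at 1.6 (SE 0.23, adjusted p = 3.5e-06). Within DKI 8 rose and 1 fell (23.7% of genes each way), with Srrt among those that rose, from 158, 154 and 162 to 234, 239.7 and 217 CPM (0.54, SE 0.21, adjusted p = 0.036), a call lost without any 1 of 5 of the 6 libraries (adjusted p = 0.064 to 0.086). Within CD28 AYAA 6 rose and 1 fell (21.7% and 23.7%), and without its number 1 of day 1 the count was 4. Zfc3h1 was the gene that fell in all of these, by 0.48, 0.49 and 0.33 on the log2 scale. Within CD28 Y170F 2 rose (Phax at 0.32 and Zfc3h1 at 0.36) and 4 fell (21.1% and 19.2% of genes), with Zc3h18 at -0.56 (SE 0.12, adjusted p = 4.5e-04) and Ncbp1 at -0.45 (SE 0.12, adjusted p = 0.003), beside -0.47 and -0.35 in WT, the latter with adjusted p = 0.068. Without CD28 Y170F number 2 of day 1 the count was 3, and without number 3 of day 3 it was 2. Within Ars2 KO only Srrt passed (13.3% of genes rose), and without its number 3 of day 3 Ncbp2 did too (0.39, adjusted p = 0.014).

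The change of the genotype difference between the days was tested itself. For libraries labelled CD28 KO, 6 members moved up and 1 down relative to WT from day 1 to day 3, against 20.5% and 14.7% of all genes. For DKI the numbers were 6 and 1 (17.7% and 14.7%), and for CD28 AYAA 4 and 0 (12.3% and 12.1%). For Ars2 KO the 1 call was Srrt (1.91% of genes moved up), with 2 to 4 calls without number 3 of either day or without WT number 1 of day 3. For CD28 Y170F 0 members passed, 0 had an unadjusted p under 0.05, and 0% of all genes passed by edgeR. DESeq2 and limma-voom also called 0 of the 10. These contrasts share the WT libraries. Without WT number 1 of day 1 the count was 3 for DKI and 2 for CD28 AYAA, and without WT number 4 of day 3 it was 1 for CD28 AYAA.

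The wider machinery was read from lists of genes that act with the members. Among 16 tested subunits and adaptors of the nuclear exosome, 9 rose and 0 fell in WT at day 1, where 24.2% of all genes rose and 27.2% fell. The median of the list on the log2 scale was 0.51, beside -0.02 over all genes. Pabpn1, the nuclear poly(A)-binding protein, was at 0.99 (SE 0.1, adjusted p = 5.4e-09) and the nuclease gene Dis3 at 1.38 (SE 0.27, adjusted p = 1.5e-04). The counts for 14 genes of the TREX export complex and its receptors were 6 and 0, for 10 genes of cap synthesis and cytoplasmic cap binding 6 and 3, for 5 genes of snRNA export and cap-binding complex import 4 and 0, and for 10 histone 3′ processing genes 5 and 1. Without WT number 1 of day 1, 4 exosome genes rose and 1 fell and 1 TREX gene rose, and without number 2 of day 0, 6 exosome and 3 TREX genes rose. Both microprocessor genes rose, Drosha from 25.6 to 83.2 CPM (1.7, SE 0.16, adjusted p = 3.4e-09) and Dgcr8 at 0.75 (SE 0.14, adjusted p = 7.4e-05). The cap-binding translation genes Eif4e3 (1.56, SE 0.19) and Ctif (2.11, SE 0.33) rose with them, while Mif4gd, a partner of SLBP in histone mRNA translation, fell by 0.73 on the log2 scale (SE 0.11, adjusted p = 5.1e-06).

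In libraries labelled CD28 KO the same lists were set against WT at day 1, where 24.7% of all genes were lower and 18.6% higher. Exosome genes were lower in 13 of 16 and higher in 0 cases (median -0.63), with Dis3 at -1.91 (SE 0.28, adjusted p = 6.9e-06). TREX genes were lower in 10 and higher in 1 of 14 cases, and cap synthesis genes lower in 7 and higher in 1 of 10, the latter being Pcif1, the cap-adjacent adenosine methyltransferase (0.56, SE 0.1, adjusted p = 9.4e-05). All 5 snRNA export and import genes were lower (median -1.43). Kpna2, an importin that carries the cap-binding complex, fell from 141 to 25.9 CPM (-2.45, SE 0.27, adjusted p = 1.8e-07), and the transport GTPase gene Ran from 474 to 117 CPM (-2.02, SE 0.28, adjusted p = 2.9e-06). Histone 3′ processing genes were lower in 6 and higher in 1 of 10 cases, with Cpsf2 at -1.01 (SE 0.16, adjusted p = 2.2e-05), and both microprocessor genes were lower. Against WT number 4 alone the lower genes numbered 7, 5, 5, 4 and 3 in the same order of lists, where 25.5% of all genes were called, and 1 microprocessor gene was lower. Without number 1 of the libraries labelled CD28 KO, 8 exosome genes were lower.

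In DKI at day 1, where 15.8% of all genes were lower, the lower genes numbered 10, 6, 4, 4 and 4 in the same order, with Kpna2 at -1.8 (SE 0.24, adjusted p = 5.5e-06). These counts rested on WT number 1. Against WT number 4 alone they were 0, 0, 1, 1 and 0, where 3.52% of all genes were called, and Kpna2 was at -1.15 (adjusted p = 0.0071). Without 1 DKI library at a time they went down to 6, 4, 2, 3 and 2. In Ars2 KO at day 1 the list medians lay between -0.12 and -0.02, and their sign depended on the WT library. Against WT number 1 alone the snRNA median was -0.33 and the exosome median -0.22. Against WT number 4 alone they were 0.19 and 0.11. At day 3, where 6.60% of all genes were higher, 5 exosome genes were higher than in WT and 0 lower, with Dis3 at 0.96 (SE 0.25, adjusted p = 0.014), and 2 TREX and 2 cap genes were higher. The exosome count was 1 against WT number 1 alone, where Dis3 was at 0.62 (adjusted p = 0.28), 1 without Ars2 KO number 2 (0.73, adjusted p = 0.08), 2 without number 1 and 8 without number 3. Over these alternatives the TREX count ran from 1 to 5 and the cap count from 0 to 3. The medians of the snRNA, histone and microprocessor lists were then 0.35, 0.04 and 0.28.

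Over the 13 group means, on the log2(CPM + 1) scale, Pearson's r was 0.99 between Alyref and Slbp, 0.98 between Casp8ap2 and Slbp and 0.96 between Ncbp1 and Ncbp2. Zfc3h1 was negative with all others. The values of Srrt depended on the groups in which it is targeted. Over all 13 means it correlated with the other members at -0.35 to 0.18, and over the 11 means without Ars2 KO at 0.94 with Alyref, 0.92 with Slbp, 0.87 with Casp8ap2, 0.86 with Ncbp1 and -0.77 with Zfc3h1. The other pairs named were at 0.98, 0.99 and 0.96 over these 11. The means share the scaling of 1 fit, and these values are a description. Slbp, Alyref and Casp8ap2 moved with the S phase level, which ran from 4.46 to 7.5 over the libraries. The lowest 2 libraries, labelled CD28 KO at day 1, held 52.0 and 58.9 CPM of Slbp, and the highest, Ars2 KO number 2 at day 3, held 241. The lowest Srrt values were those of Ars2 KO at day 1, with S phase levels of 6.79 to 7.24. Outside Ars2 KO, the lowest Srrt group means were in the groups with the lowest S phase levels. Libraries labelled CD28 KO at day 1 had a mean of 151 CPM (S phase level 4.46 and 4.93). The means were 155 in unstimulated WT (5.33 and 5.43) and 158 in DKI at day 1 (5.45 to 5.57). At day 3, DKI had 230.4 (7.27 to 7.34) and CD28 AYAA 250.2 (7.35 to 7.42). WT number 4 went the other way, with 131 CPM at day 1 and 145 at day 3, at S phase levels of 6.72 and 6.89. Both values lay below every library of the groups with the lowest S phase levels. Among 8778 genes with a mean log2(CPM + 1) of at least 3, those most like Slbp were Hprt (0.998), Psma1 (0.996) and Rfc5 (0.995), those most like Alyref were Psmc1 (0.996), Nup62 (0.992) and Mrpl18 (0.992), and those most like Srrt were Slc20a2 (0.821), Gstz1 (0.81) and Nsf (0.807). Without the Ars2 KO groups the last 3 were at 0.673, 0.496 and 0.564.

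**Figure D5:**
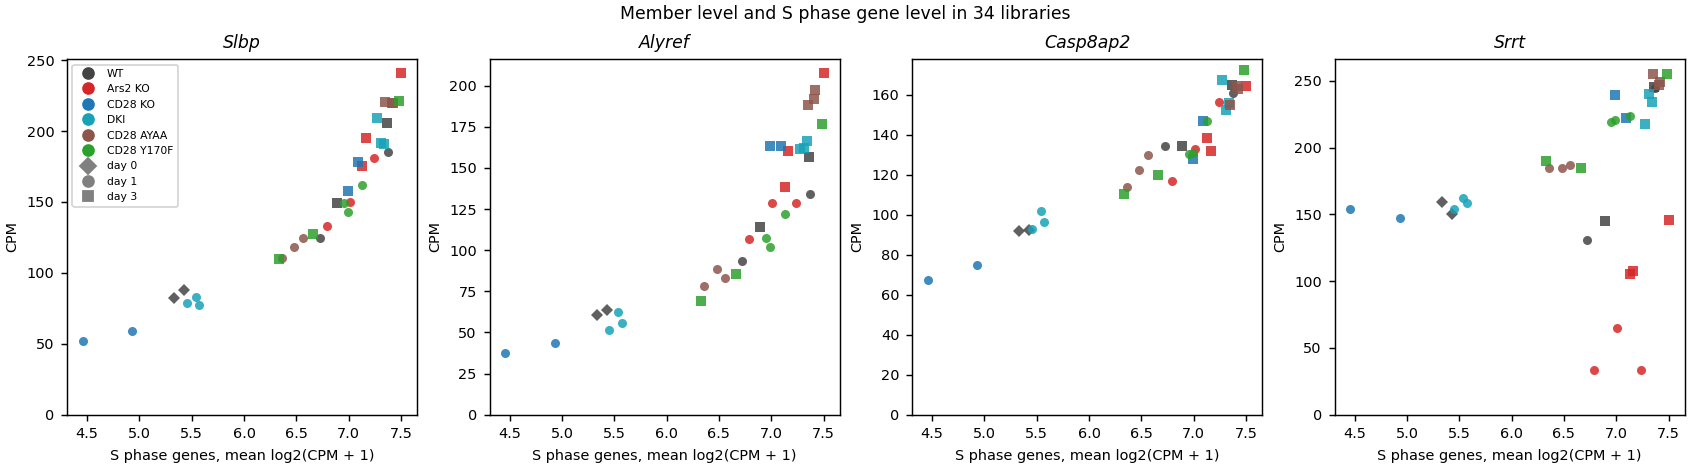
CPM of Slbp, Alyref, Casp8ap2 and Srrt (vertical axes, from 0) against the mean log2(CPM + 1) of 15 S phase genes (horizontal axis) in 34 libraries, coloured by genotype and shaped by day. Slbp climbs from 52.0 to 241 CPM along the axis, and in the Srrt panel the 3 Ars2 KO libraries of day 1 (33.5 to 64.8 CPM) lie below all others, while those of day 3 (106 to 146) reach the range of WT.

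Compared per length of the principal transcript, Srrt was the most abundant member in unstimulated WT at 51.2 CPM per kb, ahead of Slbp at 44.5, Ncbp1 at 25.4, Zc3h18 at 22.6 and Zfc3h1 at 22.2. Ncbp2 (11.0) and Ncbp3 (6.0) were lowest. In WT at day 1 Slbp was highest at 81.3 CPM per kb, followed by Srrt at 62.0 and Ncbp1 at 43.9. The order depended on the length used. Per kb of merged exons Slbp held 14.0 and 25.5 CPM on these days, below Srrt (29.5 and 35.8) on both. By that length Ncbp1 was highest at day 1 with 39.0, and Alyref (29.6) also lay above Slbp. Between the groups, Srrt had the widest span, with the highest group mean 5.68 times the lowest. Next came Alyref (4.76), Slbp (3.97), Ncbp2 (2.67), Casp8ap2 (2.26), Ncbp1 (1.91), Zc3h18 (1.79), Phax (1.74) and Ncbp3 and Zfc3h1 (1.52 each). The lowest Srrt mean was that of Ars2 KO at day 1, where the gene is targeted. Without the Ars2 KO groups the Srrt means ran from 150.7 to 250.2 CPM. That relative span was narrower than those of Alyref (40.4 to 192.4) and Slbp (55.4 to 220.3). Some counts could hold reads of other genes, as the strand setting of the counting is not stated. Phax shares 300 exon bases with the antisense gene Aldh7a1, Slbp 474 with Gm10459, Ncbp2 131 with Senp5, and Ncbp1 82 and 77 with Tstd2 and Xpa. Alyref has a near copy, Alyref2, with a mean count of 57.8 beside 2624 for Alyref, and Zc3h18 lies within the same-strand gene model Gm20388.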

How the data were processed

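RNA-seq was made from 34 libraries of mouse T cells in 13 groups, grouped by their titles. The authors deposited 1 table of expected counts per gene, which per the submitters' processing notes came from bcl2fastq 2.20, FastQC, STAR and RSEM on mm10 (GRCm38), with limma also named, and the strand setting of the counting is not given in the sources used here. From 83.7 to 90.8% of the expected counts in a library were whole, and all were rounded to whole numbers before testing. Identifiers were matched to GENCODE M21 for 48144 of 48526 genes.

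Counts were filtered with filterByExpr, scaled by TMM (factors 0.83 to 1.11) and fitted over all 13 groups with edgeR 4.0.16 (quasi-likelihood test, R 4.3.3), without covariates. P-values were adjusted over all 18292 genes by the Benjamini-Hochberg method, and genes with adjusted p under 0.05 were called. CPM values are TMM-scaled, except the marker sums, which are relative to total counts. The fitting code was tested on simulated counts. Alternatives were RLE size factors, scaling on protein-coding genes, no filter, the depth class (under 12 M counts) as a term, limma-voom (limma 3.58.1), DESeq2 1.42.0, a fit to the compared groups, the replicate number as a block, and each of the 34 libraries left out in turn. Same-numbered libraries of CD28 AYAA and CD28 Y170F at day 1 correlated in their deviations from the group means at 0.279, 0.326 and 0.385, and those of Ars2 KO across the days at 0.239, 0.233 and 0.101, so the numbers were taken to pair them, a pairing that comes from the data and not from the labels.

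All 10 members are named, and from each list of pathway genes up to 3 with the smallest p-values (all of a list of 5 or fewer), and the 3 genes most like Srrt, Alyref and Slbp. The members and the lists were chosen with earlier results of these data known, so a count over them is a description.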

Additional observations from a re-analysis of the deposited data

Results flagged for a closer look

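The members below had a genotype difference from WT that itself differed between day 3 and day 1, by the interaction term of the edgeR fit with adjustment over all genes. All of these tests share the WT libraries. In libraries labelled CD28 KO the difference moved up by 1.13 for Ncbp1 (adjusted p = 1.3e-04), 1.37 for Ncbp2 (2.5e-05 adjusted), 1.0 for Zc3h18 (5.1e-04), 1.76 for Alyref (5.8e-04), 0.93 for Casp8ap2 (0.0018) and 1.4 for Slbp (9.6e-04) on the log2 scale, and for Zfc3h1 it was -0.62 (0.015). In DKI it was 0.96 for Ncbp1 (adjusted p = 3.7e-04), 1.13 for Ncbp2 (1.1e-04), 0.91 for Zc3h18 (6.8e-04), 1.28 for Alyref (0.0048), 0.69 for Casp8ap2 (0.01), 1.11 for Slbp (0.0037) and -0.62 for Zfc3h1 (0.0086). In CD28 AYAA it was 0.75 for Ncbp1 (adjusted p = 0.0047), 0.94 for Ncbp2 (0.0011), 0.78 for Zc3h18 (0.004) and 0.96 for Alyref (0.038). In Ars2 KO it was 1.38 for Srrt (adjusted p = 0.021).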

How the results depend on the processing

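The counts of called members under RLE size factors and limma-voom stayed within 1.5 times those reported in all 37 comparisons. Other settings moved some counts further, and the cause was not tested. With scaling on protein-coding genes, 5 members were called between DKI at day 1 and day 0, 3 between WT at day 3 and day 1, 2 between libraries labelled CD28 KO and WT at day 3, and 2 in the day 3 minus day 1 difference of Ars2 KO, which also had 2 with DESeq2. Without the filter, 3 were called between Ars2 KO at day 3 and day 1. DESeq2 called 2 between DKI and libraries labelled CD28 KO at day 1.

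With the depth class as a term, 5 members were called between DKI at day 1 and day 0, where Zfc3h1 reversed (-0.05, adjusted p = 0.86). Against WT of the same day it called 1 in Ars2 KO at day 3, 1 in DKI at day 1, 5 in DKI at day 3, 3 in CD28 AYAA at day 1 and 2 at day 3, and 4 between DKI and libraries labelled CD28 KO at day 1.

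The fit to the compared groups only has fewer degrees of freedom. Against day 0 it called 6 for DKI and 8 for CD28 AYAA at day 1 and 1 for CD28 Y170F at day 3. Between the days it called 0 in WT, 2 in CD28 Y170F and 0 in the Ars2 KO interaction. Against WT it called 0 in Ars2 KO on either day, with Srrt at -2.1 (adjusted p = 0.47) and -0.71 (adjusted p = 0.27). It called 4 between CD28 AYAA and CD28 Y170F on each day, and 5 at day 1 and 1 at day 3 between DKI and libraries labelled CD28 KO.

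With the replicate number as a block, 7 members were called between CD28 AYAA and CD28 Y170F at day 1, 2 at day 3 and 5 between DKI and libraries labelled CD28 KO at day 1. For the last 2 the numbers did not pair the libraries. The block changed no member's call between the days of Ars2 KO. Over WT and all mutants except libraries labelled CD28 KO, it left 47 member results between the days the same. It added 1 call and removed 2. No paired analysis was possible for mutants against WT because they share only number 1.

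Leaving out 1 library at a time gave these lowest and highest counts, which stand without the shares of all genes in those fits. Against day 0, WT gave 5 to 8 at day 1 and 5 to 6 at day 3, Ars2 KO 8 to 8 and 7 to 7, libraries labelled CD28 KO 2 to 3 and 6 to 7, DKI 2 to 3 and 7 to 8, CD28 AYAA 3 to 5 and 7 to 8, and CD28 Y170F 7 to 7 and 5 to 6. Between the days, WT gave 0 to 2, Ars2 KO 1 to 2, libraries labelled CD28 KO 6 to 7, DKI 7 to 9, CD28 AYAA 4 to 7 and CD28 Y170F 2 to 7. Against WT, Ars2 KO gave 1 to 1 and 1 to 3 (Srrt from -2.51 to -1.55 and from -1.04 to -0.3), libraries labelled CD28 KO 6 to 9 and 0 to 2, DKI 0 to 7 and 1 to 4, CD28 AYAA 0 to 0 and 0 to 4, and CD28 Y170F 0 to 0 and 0 to 2. CD28 AYAA against CD28 Y170F gave 0 to 0 and 5 to 9, and DKI against libraries labelled CD28 KO 0 to 1 and 0 to 0. The interactions gave 0 to 4 for Ars2 KO, 6 to 8 for libraries labelled CD28 KO, 3 to 8 for DKI, 1 to 6 for CD28 AYAA and 0 to 0 for CD28 Y170F. Where 1 library was left in a group, it was assumed to vary like the others. The correlations without the Ars2 KO groups were an alternative chosen after seeing the data, and they moved the values of Srrt as given with the correlations.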
